A study of Mus musculus with 22 samples.

Results

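The genes described here encode the subunits of the MuvB core and of the DREAM and MMB complexes built on it. Their RNA was measured in heart ventricles of mouse embryos in which Lin9, itself a core subunit, had been deleted. The members were the rows of both count tables whose gene symbol was Lin9, Lin37, Lin52, Lin54, Rbbp4, Mybl1, Mybl2, Rbl1, Rbl2 or E2f4. All 10 were found in each table, among 48709 genes.

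Ventricles were taken at E13.5, and polyadenylated RNA was sequenced in 18 libraries, 3 for each of 6 genotype groups. The first experiment compared hearts labelled LIN9 KO with hearts labelled LIN9 wt, both wild-type for Sav1. The second experiment combined both genes in 4 groups, namely LIN9 wt with Sav1 wt, LIN9 KO with Sav1 wt, LIN9 wt with Sav1 KO, and the double mutant with LIN9 KO and Sav1 KO. In the conditional alleles, exon 7 of Lin9 and exon 3 of Sav1 each lie between LoxP sites. Every group, controls included, carried Nkx2.5-Cre, which recombines these alleles in cardiac precursor cells but not in every cell of a ventricle. The knockouts were Lin9 fl/fl or Sav1 fl/fl. The LIN9 wt hearts were described in the study as Lin9 fl/+, so that 1 floxed copy was present in the controls as well. The labels do not say whether the 3 libraries of a group came from separate embryos, and the study describes its LIN9 comparisons at this age as biological replicates each done in triplicate. The p-values below therefore measure the spread between libraries, which may be technical, and the 3 libraries of a group may be 1 biological replicate.

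MuvB is a core of LIN9, LIN37, LIN52, LIN54 and RBBP4 that has no fixed direction of action. DREAM is its repressive form, in which a pocket protein, p130 or p107, and a dimer of E2F4 and a DP protein sit on the core and keep cell cycle genes low outside the cycle. MMB is the activating form, built with B-MYB, the product of Mybl2, and acts on genes of cell division. SAV1 is a scaffold of the Hippo kinases, which restrain the coactivator YAP. The comparisons below ask how the RNA of the complex's own subunits stood when LIN9, SAV1 or both were lost.

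The libraries of the first experiment held 9485599 to 9615274 counts and those of the second 2770741 to 2999877, so 1 count was worth a median of 0.104 and 0.341 CPM, respectively, CPM being counts scaled to 1000000 per library. The hearts carried ventricular markers (Myl2, Myl3, Myh7, Irx4, Hey2, Tnnt2, Nppa and Mybpc3), while Actc1, Alas2 and the MMB target Prc1 were listed at 0 in every library. Actc1 encodes the cardiac actin of all heart muscle, so a listed 0 is not read here as absence of the RNA. The summed level of the 9 ventricular markers was 19044 to 19584 CPM in LIN9 wt and 9978 to 11838 CPM in LIN9 KO hearts of the first experiment. In the second experiment it was 19684 to 20427 CPM in the control and 9556 to 13183 CPM with LIN9 KO, and 20082 to 21553 CPM with Sav1 KO and 10960 to 11812 CPM in the double mutant. The summed level of 13 erythroid markers was 7920 to 10964 CPM against 34896 to 90790 CPM in the first experiment, 4263 to 5352 CPM against 21225 to 39045 CPM with Sav1 wt, and 3339 to 4381 CPM against 10702 to 30858 CPM with Sav1 KO. Of 12 erythroid markers tested, 11, 12 and 11 rose in the 3 LIN9 comparisons, as did 7, 6 and 6 of 7 macrophage markers, 6, 5 and 6 of 6 fibroblast and cushion markers and 4 of 5 epicardial markers in each. Of 8 ventricular markers tested, 7 fell in each of the 3 and 1, Nppa, rose. Of 7 endothelial markers 2, 2 and 3 rose, and 0, 1 and 1 fell, Kdr being the one. Of 5 atrial markers 0, 1 and 1 rose, namely Sln, and none fell. All LIN9 comparisons below, of the members, their partners and the MMB targets alike, stand beside these shifts. The part of the shifts in the values of these genes was not tested. In such bulk samples, fewer cells of a type and less RNA per cell cannot be told apart.

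The deleted segment was read from the GENCODE annotation of GRCm38, the build of the count tables. Lin9 lies on chromosome 1 from 180641150 to 180690694 on the plus strand and has 2 annotated coding transcripts, whose exon numbers differ. Exon 7 of Lin9-203, which has 15 exons, is a coding exon of 158 bases at chr1:180665783-180665940. Exon 7 of Lin9-204, which has 14 exons, is the next coding exon downstream, with 134 bases at chr1:180667325-180667458. The labels do not say which numbering was used, so both are shown, in lower case throughout because no base is singled out.
Lin9-203 exon 7: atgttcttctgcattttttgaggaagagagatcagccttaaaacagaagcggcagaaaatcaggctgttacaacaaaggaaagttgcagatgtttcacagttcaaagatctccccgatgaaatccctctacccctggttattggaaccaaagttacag
Lin9-204 exon 7: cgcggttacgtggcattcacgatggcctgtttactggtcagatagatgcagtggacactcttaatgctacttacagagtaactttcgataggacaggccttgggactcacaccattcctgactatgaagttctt
Neither length is a multiple of 3, the remainder being 2 bases in each. Without its exon 7 the reading frame of Lin9-203 meets a stop after 211 of 558 codons, and that of Lin9-204 after 204 of 518 codons. The exon makes up 2.18% or 1.85% of the gene's 7244 exonic bases, so a count over the whole gene checks the Lin9 label only in part.

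**Figure D1:**
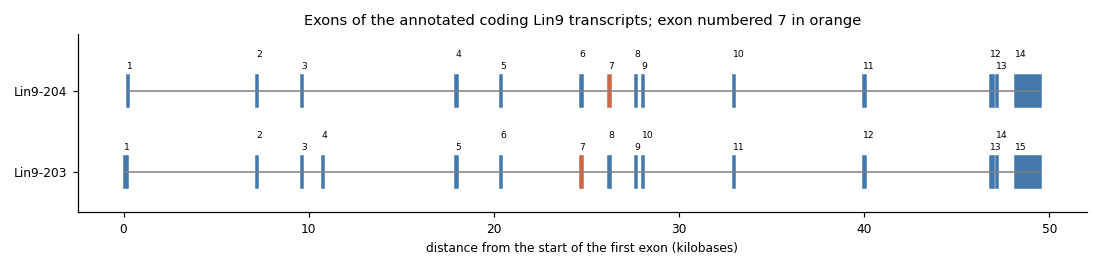
Exons (boxes) of the 2 annotated coding transcripts of Lin9, drawn to scale by distance in kilobases from the first annotated exon start and numbered within each transcript. The exon numbered 7 (orange) differs between them, with 158 bases in Lin9-203 and 134 bases in Lin9-204.

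Promoters were taken from RefSeq on GRCm38.p6, 250 bases before to 50 after each start, on the gene's own strand. They were at hand for 7 members, with 8 starts in all because Lin54 has 2. Those for Lin9, Mybl1 and E2f4 were not used here. Each was searched on both strands for the cell cycle homology region TTTGAA, its variant TTCGAA, and the E2F site forms TTTCCCGC, TTTGGCGC and TTCCCGCC. The promoters of Rbl1 and Rbbp4 are shown because both genes passed the test as lower with LIN9 loss, Rbl1 in all 3 comparisons and Rbbp4 only with Sav1 KO. Those of Lin52 and of 1 start of Lin54 are shown because they held an E2F form and the homology region. Capitals mark every match.
Rbl1, chr2:157204485-157204784, minus strand: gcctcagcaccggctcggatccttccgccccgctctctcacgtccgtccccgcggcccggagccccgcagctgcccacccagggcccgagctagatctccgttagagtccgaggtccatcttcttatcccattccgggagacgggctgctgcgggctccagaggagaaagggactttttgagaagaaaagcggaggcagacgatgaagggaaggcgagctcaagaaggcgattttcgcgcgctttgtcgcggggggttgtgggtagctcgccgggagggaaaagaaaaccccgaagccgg
Rbbp4, chr4:129335321-129335620, minus strand: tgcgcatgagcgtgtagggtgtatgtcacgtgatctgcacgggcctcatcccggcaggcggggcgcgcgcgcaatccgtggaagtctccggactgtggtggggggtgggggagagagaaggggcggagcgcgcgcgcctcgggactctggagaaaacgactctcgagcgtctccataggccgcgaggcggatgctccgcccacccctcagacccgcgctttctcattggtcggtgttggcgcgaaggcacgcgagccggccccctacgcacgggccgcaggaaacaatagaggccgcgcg
Lin52, chr12:84451258-84451557, plus strand: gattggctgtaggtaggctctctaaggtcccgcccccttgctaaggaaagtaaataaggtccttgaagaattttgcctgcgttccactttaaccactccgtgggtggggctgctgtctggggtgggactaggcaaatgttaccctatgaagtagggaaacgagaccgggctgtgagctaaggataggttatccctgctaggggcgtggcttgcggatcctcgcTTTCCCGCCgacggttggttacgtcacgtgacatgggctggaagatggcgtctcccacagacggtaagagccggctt
Lin54, chr5:100498524-100498823, minus strand: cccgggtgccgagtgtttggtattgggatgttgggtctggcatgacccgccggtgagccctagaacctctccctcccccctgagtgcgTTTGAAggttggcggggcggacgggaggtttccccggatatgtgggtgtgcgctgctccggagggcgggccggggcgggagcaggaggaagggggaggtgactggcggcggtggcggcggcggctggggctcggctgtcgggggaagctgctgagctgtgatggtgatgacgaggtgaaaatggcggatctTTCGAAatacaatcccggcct
The Lin52 promoter held TTTCCCGC at -27 and the overlapping TTCCCGCC at -26, counted from 0 at the start site. TTTCCCGC was present in 1.07% and TTCCCGCC in 2.19% of 32851 promoters of this length. The Lin54 promoter shown held TTTGAA at -162 and TTCGAA at 29, and the other Lin54 start held TTTGAA at 40. TTTGAA also lay at -197 in Lin37 and on the opposite strand at -201 in Rbl2. TTTGAA thus matched 4 of the 8 promoters, beside 17.9% of all promoters, and TTCGAA matched 1 of 8, beside 1.56%. TTTGGCGC, present in 0.514% of promoters, matched none of the 8. The promoters of Rbl1, Rbbp4 and Mybl2 held none of these letters in this window. Only exact matches were searched, so other forms of an E2F site or of the homology region may be present in any of these promoters.

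Levels between members were compared per kilobase of exonic length (CPM per kb). In the LIN9 wt hearts of the first experiment Rbbp4, a histone chaperone of the core, stood at 24.9 ± 1.37 CPM per kb (SD, n = 3) and E2f4 at 24.4 ± 0.555 CPM per kb, and the libraries of these genes overlapped. Rbl1 followed at 11.5 ± 1.19 CPM per kb and lay apart from both its neighbours in the order. Lin54 at 6.70 ± 0.319 and Lin37 at 6.65 ± 0.314 CPM per kb overlapped, and Mybl2 stood at 5.89 ± 0.309 CPM per kb. Rbl2 at 3.59 ± 0.0833, Lin9 at 3.53 ± 0.578 and Lin52 at 3.34 ± 0.344 CPM per kb overlapped with one another, and Mybl1 was lowest at 2.35 ± 0.321 CPM per kb. In all 6 groups Rbbp4 and E2f4 held the first 2 places and Rbl1 the third. Lin9 was the lowest member in the hearts of all 3 LIN9 KO groups, although its range overlapped that of the member above it in 2 of these groups, the exception being LIN9 KO with Sav1 wt.

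**Figure D2:**
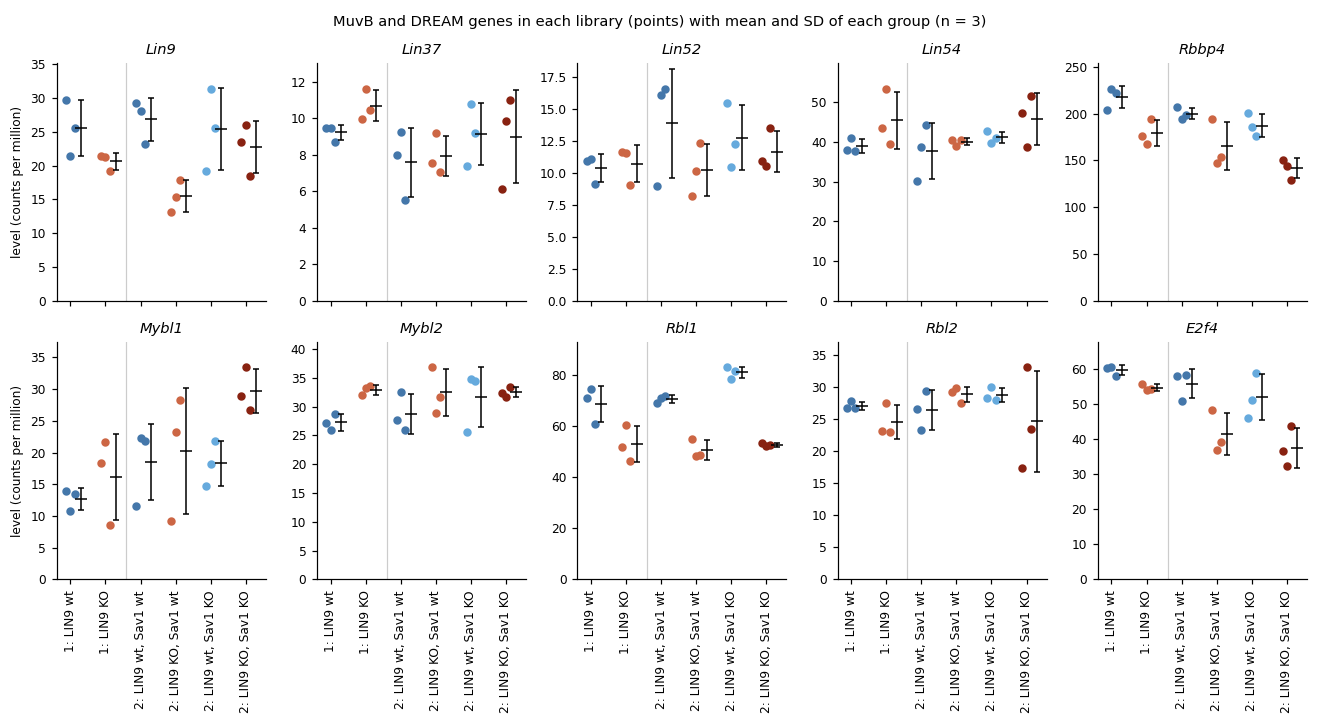
Level of each member in CPM (vertical axes from 0) in every library (points) of the first (1) and second (2) experiment, with the mean and SD of each group of 3 libraries (bars). Rbl1, Rbbp4 and E2f4 sit lower, without overlap, in each LIN9 KO group than in its LIN9 wt counterpart, but only Rbl1 passed the test each time. Lin9 passed the test only with Sav1 wt in the second experiment, falling from 26.8 to 15.5 CPM.

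Each comparison was tested across all genes with edgeR's quasi-likelihood test and Benjamini-Hochberg adjustment, and a gene was called at an adjusted p under 0.05. Loss of LIN9 lowered 1 of the 10 members in the first experiment, where 20.9% of all tested genes were called and 9.78% were called lower. With Sav1 wt in the second experiment it lowered 3 of 10, beside 23.2% of all genes called and 10.5% called lower, and with Sav1 KO it lowered 3 of 10, beside 23.4% and 11.6%. The 3 members lowered with Sav1 wt were Rbl1, E2f4 and Lin9 itself. Lin9 is the deleted gene, so its fall is no separate response, and it also enters the medians of the members below. No member rose past the threshold in any of the 3 comparisons. Counted in either direction, the shares of members called were near or, in the first experiment, below those of all genes, and whether the members differed from other genes was not tested. The median log2 fold change of the members was -0.04, -0.10 and -0.14, respectively, beside 0.02, 0.01 and 0.03 over all genes. The libraries of the LIN9 KO and LIN9 wt groups did not overlap for 6 of 10 members in the first experiment, beside 36.5% of all genes. They did not overlap for 4 members with Sav1 wt, beside 35.1%, and for 4 with Sav1 KO, beside 41.1%. The comparisons within the second experiment share libraries with one another, and their values are given side by side.

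Lin9, the subunit that holds the core together and the targeted gene, was measured at 29.8, 21.4 and 25.6 CPM in the LIN9 wt and 21.4, 21.3 and 19.2 CPM in the LIN9 KO libraries of the first experiment. The groups did not overlap, but the lowest control and the highest knockout library were 21.397 and 21.361 CPM. The log2 fold change was -0.31 (SE 0.14, edgeR adjusted p = 0.130) and was not called. It ran from -0.19 without LIN9 wt replicate 1 to -0.42 without LIN9 wt replicate 2, and was called in neither fit. In the second experiment Lin9 was at 29.3, 28.1 and 23.2 CPM in the control and 13.1, 15.4 and 17.9 CPM with LIN9 KO and Sav1 wt. This was a clear separation, with a log2 fold change of -0.80 (SE 0.19, edgeR adjusted p = 0.00270). With Sav1 KO, Lin9 was at 19.2, 31.4 and 25.6 CPM and in the double mutant at 23.5, 26.1 and 18.5 CPM. Those groups overlapped, and the log2 fold change was -0.16 (95% interval -0.54 to 0.21, edgeR adjusted p = 0.586). Lin9 RNA was lower in 1 double mutant library, replicate 3, than in any Sav1 KO library, and all 3 double mutant libraries lay above the 3 libraries with LIN9 KO and Sav1 wt. The Lin9 counts thus do not check the label of the double mutant.

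Rbbp4 encodes the core's histone-binding subunit, which also serves in other chromatin complexes. It stood at 204.2, 226.8 and 222.3 CPM in the LIN9 wt and 176.3, 167.1 and 194.3 CPM in the LIN9 KO libraries of the first experiment. All 3 knockout libraries were lower, by a log2 fold change of -0.28 (SE 0.10), without passing the test (edgeR adjusted p = 0.0713). With Sav1 wt in the second experiment it was at 206.8, 194.6 and 198.5 against 194.566, 147.3 and 153.2 CPM, again lower in all 3 but only just so in 1. Its log2 fold change there was -0.28 (SE 0.11, edgeR adjusted p = 0.0579). Without that library, replicate 1 of LIN9 KO with Sav1 wt, it was -0.43 (edgeR adjusted p = 0.00228), and in the first experiment without LIN9 KO replicate 3 it was -0.34 (edgeR adjusted p = 0.0225). The other 5 fits of each comparison that left out 1 library stayed uncalled, and over all 6 the change reached up to -0.23 in both, with adjusted p up to 0.196 in the first experiment and 0.182 with Sav1 wt. Without a filter on low counts the change with Sav1 wt also passed (edgeR adjusted p = 0.0404). With Sav1 KO, Rbbp4 fell from 200.2, 185.4 and 176.0 CPM to 150.3, 144.4 and 129.5 CPM in the double mutant, with no overlap. This passed the test, with a change of -0.40 (SE 0.11, edgeR adjusted p = 0.00576). Of the exonic bases of Rbbp4, 18.1% lie under Sync and Gm26722 on the opposite strand. The study names its counting function but not its settings for strand or for reads over more than 1 gene. It is therefore not known whether reads in such overlaps were left out or counted. Whether the overlap moved the place of Rbbp4, or of Rbl2 below, in the order per kilobase was not tested.

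The other core subunits were not called in any LIN9 comparison. Lin54, the DNA-binding subunit that reads the cell cycle homology region, was at 38.1, 41.1 and 37.7 CPM in LIN9 wt and 43.5, 53.5 and 39.5 CPM in LIN9 KO hearts of the first experiment. Its log2 fold changes were 0.22 (95% interval -0.03 to 0.48), 0.09 (-0.21 to 0.38) and 0.16 (-0.13 to 0.44) in the 3 comparisons. The first of these was 0.090 without LIN9 KO replicate 2, the highest library. Lin37, a subunit needed for repression by DREAM, was at 9.48, 9.49 and 8.73 CPM in LIN9 wt and 9.98, 11.6 and 10.5 CPM in LIN9 KO hearts of the first experiment. Its log2 fold changes were 0.21 (95% interval -0.12 to 0.54), 0.07 (-0.50 to 0.64) and -0.02 (-0.57 to 0.52). In the second experiment Lin37 rested on 16 to 32 counts a library, and changes within its wide intervals there were not excluded. Lin52, the subunit whose phosphorylation by DYRK1A favours DREAM, was at 8.98, 16.1 and 16.6 CPM in the control and 8.22, 10.2 and 12.3 CPM with LIN9 KO and Sav1 wt. Its log2 fold changes were 0.05 (95% interval -0.30 to 0.40), -0.44 (-0.94 to 0.06) and -0.13 (-0.62 to 0.37). Without replicate 1 of the second control group, the library with 8.98 CPM, the change with Sav1 wt became -0.70 (edgeR adjusted p = 0.0390), and without control replicate 3, the highest, it was -0.30 (adjusted p = 0.529).

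Neither MYB partner of MMB was called in a LIN9 comparison. Mybl2, the gene of B-MYB, was at 27.1, 25.9 and 28.8 CPM in LIN9 wt and 32.0, 33.1 and 33.5 CPM in LIN9 KO hearts of the first experiment. All 3 knockout libraries lay above the controls, with a log2 fold change of 0.27 (SE 0.11) that was not called (edgeR adjusted p = 0.0934). In the second experiment it was at 27.6, 32.5 and 25.9 CPM in the control and 36.8, 28.9 and 31.7 CPM with LIN9 KO, and these groups overlapped. With Sav1 KO it was at 25.6, 34.8 and 34.5 CPM, and in the double mutant at 32.4, 31.7 and 33.4 CPM. The log2 fold changes were 0.18 (95% interval -0.13 to 0.49) and 0.04 (-0.27 to 0.35). Under the alternatives the first of these ran from 0.059 to 0.24 and was never called. Of the stretches of 50 bases in Mybl2 transcripts, 18.6% also occur in transcripts of the annotated gene Gm3320, so the split of reads between the genes is uncertain.

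Mybl1, which encodes A-MYB, a relative of B-MYB best known from the germ line, varied most between libraries of a group, with a coefficient of variation of up to 48.9%. In the first experiment it was at 14.0, 10.8 and 13.4 CPM in LIN9 wt and 18.3, 21.7 and 8.64 CPM in LIN9 KO hearts, where 1 knockout library lay below all controls. The log2 fold change was 0.35 (95% interval -0.35 to 1.04, edgeR adjusted p = 0.495), and without that library, replicate 3, it was 0.65 (edgeR adjusted p = 0.00403), while without LIN9 KO replicate 2, the highest, it was 0.079 (adjusted p = 0.891). With Sav1 wt in the second experiment it was at 11.6, 22.3 and 21.8 against 9.20, 23.3 and 28.3 CPM. In both of these groups replicate 1 was the low library. With Sav1 KO it was at 14.8, 18.2 and 21.8 CPM, and all 3 double mutant libraries were higher at 29.0, 33.5 and 26.7 CPM. The log2 fold change of 0.70 (SE 0.35) was not called (edgeR adjusted p = 0.191). It was called when only these 6 libraries were fitted (0.70, edgeR adjusted p = 0.00144) and without a filter on low counts (0.70, adjusted p = 0.00496), and over all alternatives the adjusted p ran from 0.00144 to 0.409.

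Rbl1 was the only member that fell past the threshold in all 3 LIN9 comparisons. It encodes p107, a pocket protein that can take the place of p130 in DREAM and whose own gene is a textbook E2F target. In the first experiment Rbl1 was at 71.0, 74.6 and 60.9 CPM in LIN9 wt and 51.9, 60.4 and 46.5 CPM in LIN9 KO hearts. The groups lay apart, although the lowest control and the highest knockout were close. The log2 fold change was -0.38 (SE 0.12, edgeR adjusted p = 0.0324). This call was lost in 4 of 6 fits that left out 1 library. The edgeR adjusted p was 0.120 without LIN9 wt replicate 1 and 0.138 without LIN9 wt replicate 2. It was 0.0991 without LIN9 KO replicate 1 and 0.0703 without LIN9 KO replicate 3. DESeq2 lost the call as well (adjusted p = 0.0525). The log2 fold change ran from -0.29 to -0.36 in the 4 fits and was -0.38 by DESeq2.

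In the second experiment Rbl1 was at 69.1, 70.9 and 71.9 CPM in the control and 55.2, 48.2 and 48.8 CPM with LIN9 KO. Rbl1 fell by 0.48 on the log2 scale (SE 0.11, edgeR adjusted p = 0.00157). With Sav1 KO alone it was at 83.1, 78.7 and 81.5 CPM, the highest values of the series, and in the double mutant at 53.5, 52.1 and 52.6 CPM. The log2 fold change between these groups was -0.62 (SE 0.11, edgeR adjusted p = 7.49e-05). Both calls held in all 12 alternatives run for each. The 2 groups with LIN9 KO overlapped in Rbl1.

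Rbl2 encodes p130, the main pocket protein of DREAM, and was not called in any LIN9 comparison. It was at 26.7, 27.8 and 26.8 CPM in LIN9 wt and 23.1, 27.6 and 22.9 CPM in LIN9 KO hearts of the first experiment, and these overlapped. Its log2 fold changes were -0.14 (95% interval -0.40 to 0.11), 0.13 (-0.22 to 0.48) and -0.22 (-0.58 to 0.13) in the 3 comparisons. Over the alternatives the first ran from -0.24 to -0.097 and the second from 0.012 to 0.21, none of them called. The double mutant libraries spread widely at 17.4, 33.1 and 23.5 CPM, and without the highest of them, replicate 2, the change against Sav1 KO was -0.52 (edgeR adjusted p = 0.0442), and without the lowest, replicate 1, it was -0.05 (adjusted p = 0.868). Of the exonic bases of Rbl2, 21.0% lie under Aktip and Gm45464 on the opposite strand.

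E2f4 encodes the E2F factor through which DREAM reaches many of its promoters. In the first experiment it was at 60.5, 60.6 and 58.2 CPM in LIN9 wt and 55.8, 54.1 and 54.3 CPM in LIN9 KO hearts. The groups did not overlap, but the log2 fold change of -0.13 (SE 0.09) was not called (edgeR adjusted p = 0.398). In the second experiment E2f4 was at 58.2, 51.0 and 58.5 CPM in the control and 48.3, 37.1 and 39.1 CPM with LIN9 KO. It fell by 0.43 on the log2 scale (SE 0.14, edgeR adjusted p = 0.0235). With Sav1 KO it was at 46.1, 51.3 and 59.0 CPM and in the double mutant at 36.8, 32.4 and 43.8 CPM, and the log2 fold change was -0.47 (SE 0.14, edgeR adjusted p = 0.0148). The call with Sav1 wt was lost without control replicate 1 (adjusted p = 0.0528) or 3 (0.0880), without LIN9 KO replicate 2 (0.0856) or 3 (0.0540), and by DESeq2 (0.0661). The call with Sav1 KO was lost without Sav1 KO replicate 3 (0.108) or double mutant replicate 2 (0.0834). Its log2 fold change over 12 alternatives each ran from -0.57 to -0.38 with Sav1 wt and from -0.61 to -0.37 with Sav1 KO. Whether the size of any LIN9 effect differed between the first and the second experiment was not tested, since each table was fitted on its own.

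**Figure D3:**
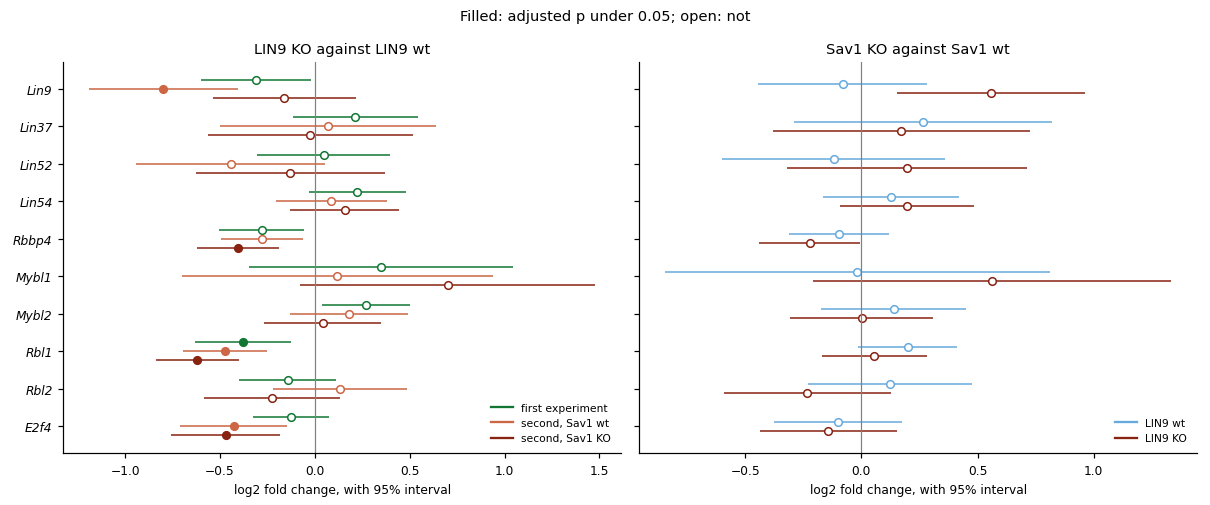
Log2 fold change (horizontal axis) of each member with its 95% interval for LIN9 KO against LIN9 wt in the 3 settings (left) and Sav1 KO against Sav1 wt in both LIN9 backgrounds (right), where filled points passed an adjusted p under 0.05 and open points did not. Rbl1 is filled in all 3 LIN9 comparisons, at -0.38, -0.48 and -0.62, and no member is filled for Sav1.

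Loss of SAV1 moved no member past the threshold. Sav1 itself was at 54.5, 56.2 and 61.9 CPM in the control and 43.1, 36.1 and 43.0 CPM in the Sav1 KO libraries. Its log2 fold change was -0.50 (SE 0.12, unadjusted p = 0.000305 from the edgeR fit), which was not called (edgeR adjusted p = 0.318). With LIN9 KO, Sav1 was at 51.9, 49.9 and 47.3 CPM with Sav1 wt and 44.0, 40.5 and 42.3 CPM in the double mutant, without overlap. That difference of -0.23 (SE 0.12, edgeR adjusted p = 0.464) was not called either. Of the exonic bases of Sav1, 25.4% lie under Atl1 on the opposite strand. With LIN9 wt, 0 of 10 members were called, with 0.017% of all genes called, and 0 members had an unadjusted p under 0.05, as 3.92% of all genes did. DESeq2 called 0 members as well. The log2 fold changes ran from -0.12 for Lin52 to 0.27 for Lin37. Rbl1 was the 1 member whose groups did not overlap, beside 12.1% of all genes, and it was higher in all 3 Sav1 KO libraries by 0.20 (95% interval -0.01 to 0.41).

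With LIN9 KO, loss of SAV1 again called 0 of 10 members, with 0.0113% of all genes called, and DESeq2 called 0. Here 2 members had an unadjusted p under 0.05, namely Lin9 and Rbbp4, beside 11.8% of all genes. Lin9 was higher in all 3 double mutant libraries than in those with LIN9 KO alone, by a log2 fold change of 0.56 (SE 0.20, edgeR adjusted p = 0.238), and was the 1 member whose groups did not overlap, beside 15.1% of all genes. Rbbp4 differed by -0.22 (SE 0.11, edgeR adjusted p = 0.411), with overlapping groups. Across the alternatives this Rbbp4 value ran from -0.28 to -0.081 and was not called in any. The edgeR test of the interaction, which asks whether the LIN9 effect differed with SAV1, called 0 members, with 0% of all genes called, and DESeq2 called 0 members. Lin9 was the 1 member with an unadjusted p under 0.05 there, beside 6.54% of all genes, with a difference between its 2 LIN9 effects of 0.64 on the log2 scale (SE 0.27, edgeR adjusted p = 0.710). For Rbl1 this difference was -0.14 (95% interval -0.45 to 0.17) and for Mybl2 -0.14 (-0.58 to 0.30).

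The 9 partners and regulators of the complexes were tested beside the members. In the first experiment 1 rose and 2 fell, with Sav1 wt 1 rose and 2 fell, and with Sav1 KO 2 rose and 1 fell. These 3 of 9 in each comparison stand beside 20.9%, 23.2% and 23.4% of all genes called. Dyrk1a, the kinase that phosphorylates LIN52, fell in all 3, with log2 fold changes of -0.38 (SE 0.11, edgeR adjusted p = 0.0177), -0.29 (adjusted p = 0.0369) and -0.29 (adjusted p = 0.0349). Rb1, the retinoblastoma gene and the pocket protein relative that stays outside DREAM, was at 10.5 ± 1.87 CPM in LIN9 wt and 15.5 ± 2.85 CPM in LIN9 KO hearts (SD, n = 3) of the first experiment. It rose there by 0.55 (edgeR adjusted p = 0.0365) and with Sav1 KO by 1.20 (adjusted p = 0.000241), and stood at 0.57 (adjusted p = 0.0613) with Sav1 wt. Lpar6 and Rcbtb2, on the opposite strand, cover 14.9% of the exonic bases of Rb1.

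The DP partners of E2F4 gave unlike values. Tfdp2 rose in both LIN9 comparisons of the second experiment, by 0.51 (edgeR adjusted p = 0.00134) and 0.42 (adjusted p = 0.00779), and stood at 0.30 (adjusted p = 0.0534) in the first. Tfdp1 fell by 0.31 with Sav1 wt (edgeR adjusted p = 0.0464), and its changes of -0.06 and -0.20 in the first experiment and with Sav1 KO were not called. Mtl5, the testis relative of Lin54 now named Tesmin, had the lowest fold change of the list in each LIN9 comparison, but its level was at most 3.05 CPM in any group. It fell in the first experiment (log2 fold change -1.68, edgeR adjusted p = 0.00466), from 2.39 ± 0.924 to 0.736 ± 0.0861 CPM (SD, n = 3). E2f5, Rbbp7, Dyrk1b and Myb were not called in any LIN9 comparison.

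A list of 13 MMB targets was picked from the genes with RT-qPCR primers in the study, of which 12 were tested and Prc1, listed at 0, was not. The genes were picked as known targets, with earlier results of these data known, so the list's direction is not independent evidence. LIN9 loss lowered 6 of 12 in the first experiment, 5 with Sav1 wt and 7 with Sav1 KO, and raised none, beside 9.78%, 10.5% and 11.6% of all genes called lower. The median log2 fold change of the 12 was -0.38, -0.40 and -0.48, beside 0.02, 0.01 and 0.03 over all genes. Ccna2, the gene of cyclin A2, was at 221.6 ± 20.6 CPM in LIN9 wt and 125.7 ± 7.38 CPM in LIN9 KO hearts of the first experiment (SD, n = 3). It fell by 0.82 on the log2 scale (edgeR adjusted p = 8.45e-05) there, by 0.90 (adjusted p = 1.67e-07) with Sav1 wt and by 1.13 (adjusted p = 3.99e-09) with Sav1 KO. Exosc9, on the opposite strand, covers 12.5% of the exonic bases of Ccna2. Kif23, a motor of the midzone in cytokinesis, fell by 0.61, 0.77 and 0.90, and Nusap1, a spindle protein, by 0.49, 0.42 and 0.74, all called.

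Other targets were called in some LIN9 comparisons. Cenpf, a kinetochore protein, fell in the first experiment by 0.71 (edgeR adjusted p = 0.00820). With Sav1 wt its change of -1.01 was the lowest of the list but had an SE of 0.69 (edgeR adjusted p = 0.368). Its 3 control libraries spread to an SD of 67.8 around 101.3 CPM, with replicate 1 at 23.3 and the others at 135.0 and 145.6 CPM. Replicate 1 was also the lowest library for Cenpf with LIN9 KO and Sav1 wt (20.7 CPM) and with Sav1 KO alone (79.8 CPM). Top2a, the decatenating topoisomerase, fell by 0.39 and 0.58 in the second experiment, as did Ect2, the exchange factor that starts cytokinesis, by 0.46 and 0.44. Foxm1, a partner transcription factor of MMB, fell in the first experiment by 0.30 and with Sav1 KO by 0.53, and Gas2l3, a cytoskeletal linker, by 0.38 and 0.40 in the same comparisons. The highest values of the list were -0.07 for Birc5 in the first experiment, -0.01 for Gas2l3 with Sav1 wt and 0.08 for Casc5 with Sav1 KO, none of them called. Loss of SAV1 called 0 of the 12 with LIN9 wt or with LIN9 KO (edgeR), with 2 at an unadjusted p under 0.05 in each, beside 3.92% and 11.8% of all genes. With LIN9 wt all 12 stood higher with Sav1 KO, at a median log2 fold change of 0.16 beside 0.00 over all genes. With LIN9 KO 7 stood higher and 5 lower, at a median of 0.04 beside 0.00. All 12 were read in the same libraries, and with LIN9 wt the groups did not overlap for 3, beside 12.1% of all genes. Control replicate 1, low for Cenpf, was also low for Aspm (56.8 against 122.3 and 127.6 CPM) and Casc5 (22.3 against 60.6 and 67.1 CPM). It was not the lowest control library for Birc5, Ccna2 or Gas2l3. The part of this library in the direction of the list was not tested.

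**Figure D4:**
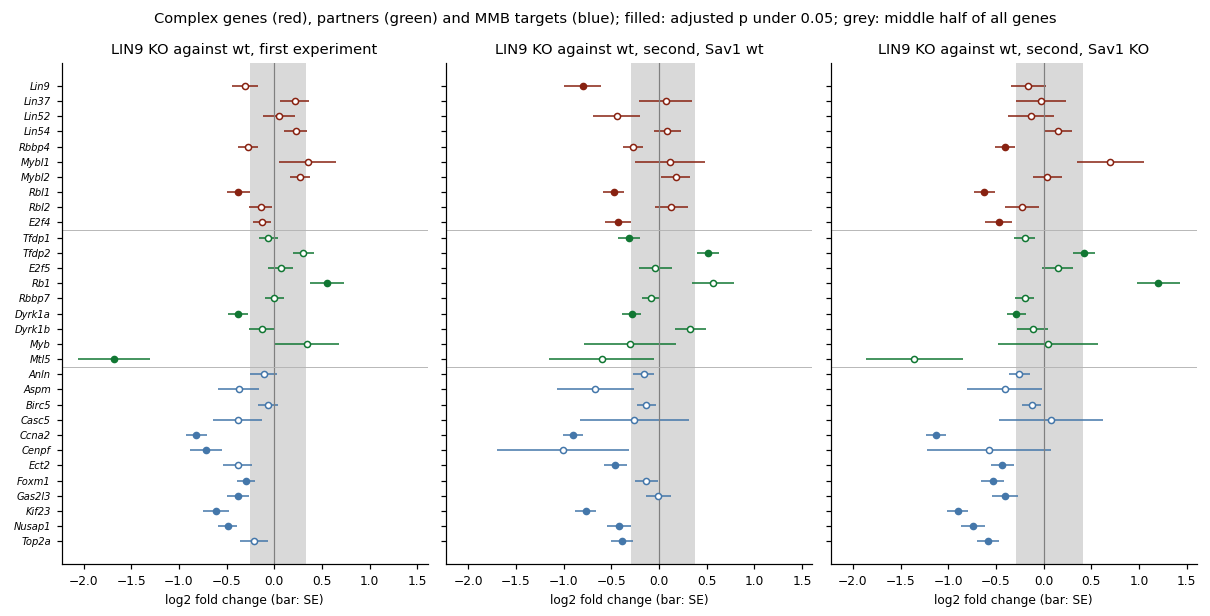
Log2 fold change (horizontal axes, with SE) with LIN9 KO of the 10 members, 9 partners and 12 tested MMB targets in the first experiment, with Sav1 wt and with Sav1 KO, where filled points passed an adjusted p under 0.05 and the grey band spans the middle 50% of all genes tested. The called targets all lie to the left of 0, and 1, 3 and 3 of the members are filled.

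The patterns of Lin9 and Mybl2 were followed across the 12 libraries of the second experiment, among 12397 genes with a mean of at least 5 CPM there. Closest to Lin9 by Pearson's r of log2 CPM were Dtd1 (0.92), Ttc39a (0.92) and Mfsd14a (0.87), whose r with Lin9 over the 6 libraries of the first experiment was 0.47, 0.64 and 0.63. Closest to Mybl2 were Mutyh (0.84), Ago4 (0.82) and Pigm (0.81), whose r in the first experiment was 0.78, -0.09 and -0.70. These values are descriptions over libraries that share group and depth, and were picked as the highest of many.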

How the data were processed

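RNA was sequenced from embryonic ventricles in 18 libraries (2 tables, 6 genotype groups of 3). The values used are the read counts per Ensembl gene as deposited. Per the study's methods and submitters' notes, the authors aligned the reads with TopHat2 2.1.0 and Bowtie2 to mm10. They brought the libraries of an experiment to the lowest number of mappable reads and counted per gene of GRCm38.p6. Totals within a table are thus alike by construction. Reads were not counted as unique molecules. Tables of the authors' own fold changes and p-values were not used, nor the ChIP-seq samples. No sample column was left unmapped (0).

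Repeated gene rows (4) were dropped, and genes with a mean count above 1 were kept. Fits used edgeR 4.0.16 (R 4.3.3; TMM, robust quasi-likelihood), with Benjamini-Hochberg adjustment over all genes, 1 model per table. Alternatives were DESeq2 1.42.0, no TMM, other count filters (no filter, mean count above 10), a replicate block, only the 6 libraries compared, and each library left out in turn. Levels are CPM on TMM-scaled library sizes, and log2 CPM used a prior count of 2. Lengths and exons came from GENCODE M21, promoters from RefSeq. The fitting code was tested on simulated counts. Pairs of libraries of a group differed by more than sampling noise (chi-square per degree of freedom 1.22 to 26.2 over 18 pairs). The named genes were the members, partners and MMB targets, of which those called in a LIN9 comparison and the extremes were described. The members and lists were chosen with earlier results of these data known.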

Additional observations from a re-analysis of the deposited data

How the results depend on the processing

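Of 760 member values under the alternatives, 701 kept their direction and side of the threshold, 12 lost a call, 11 gained a call and 36 changed sign, the last all among uncalled values within 0.16 of 0 in the fit reported. In the first experiment 0 members were called by DESeq2, 2 with a replicate block, and 0 to 2 with each library left out in turn, against 1 reported; the cause was not tested.

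Same-numbered libraries were counted as paired only if every such pair correlated above 0.1 in its deviations from the group means. No comparison met this cut. The correlations ran from 0.03 to 0.09 in the first experiment and from 0.09 to 0.39 for LIN9 with Sav1 wt. They ran from -0.05 to 0.14 in the other comparisons. LIN9 with Sav1 wt missed the cut only at replicate 2 (0.089), with 0.39 at replicate 1 and 0.17 at replicate 3. At most 4 of 6 libraries correlated best with their own number. With the replicate block 5001 genes were called in the first experiment and 84 for Sav1 with LIN9 KO, against 4131 and 2. The block also called Rbbp4 in the first experiment (-0.28, edgeR adjusted p = 0.0235) and with Sav1 wt (-0.28, adjusted p = 0.0234), and Mybl1 with Sav1 KO (0.72, adjusted p = 0.0191).

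With a library left out, log2 fold changes for LIN9 ran from -0.034 to 0.16 for Lin52 in the first experiment; with Sav1 wt from -0.070 to 0.22 for Lin54, -0.22 to 0.46 for Mybl1 and -0.11 to 0.20 for Lin37; and with Sav1 KO from -0.26 to 0.036 for Lin52, -0.090 to 0.11 for Mybl2, -0.33 to 0.019 for Lin9 and -0.21 to 0.16 for Lin37. For Sav1 with LIN9 wt they ran from -0.0083 to 0.26 for Lin54, -0.27 to 0.12 for Mybl1, -0.36 to 0.027 for Lin52 and -0.27 to 0.074 for Lin9. For Sav1 with LIN9 KO, Mybl2 ran from -0.063 to 0.11 and was -0.00036 without TMM. The interaction ran from -0.15 to 0.10 for E2f4, -0.25 to 0.12 for Lin37, -0.059 to 0.23 for Lin54 and -0.19 to 0.023 for Rbbp4.

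Counts over all genes for Sav1 with LIN9 wt were 22 without a filter, 31 with only its 6 libraries and 0 to 2 with a library left out, against 3. With LIN9 KO they were 11 by DESeq2, 309 without a filter, 0 with a mean count above 10, 0 with only its 6 libraries and 0 to 378 with a library left out, against 2. The interaction called 17 without a filter and 0 to 64 with a library left out, against 0. LIN9 in the first experiment called 2722 to 4223. Lin37, Lin52 and Mybl1 had the fewest counts, down to 16, 25 and 28 a library in the second experiment. For Mybl1 the coefficient of variation with LIN9 KO and Sav1 wt was 48.9%, beside 13.1% from counting alone.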
